A study of Homo sapiens with 6 samples.

Results

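Wild-type cells of H1, a line of human embryonic stem cells, were described here at day 2 of hematopoietic differentiation, when they are labelled as mesoderm. They were the 2 samples labelled WT among the 6 samples of the series, and were chosen by that label alone. RNA-seq values were deposited in 2 tables, each with 1 WT library and 1 library of each knockout group, and 37803 gene symbols were listed once in both. Per the labels, the medium of all 6 samples held 40 ng/ml of activin A together with 50 ng/ml of BMP4 for 2 days, and 2 ug of total RNA went into every library. In the methods of the study these doses are swapped, with 40 ng/ml for BMP4 and 50 ng/ml for activin A, and which is right is not known. The groups labelled SNAI1_KO_1 and SNAI1_KO_2 (n = 2 each) carry a deletion of SNAI1, a zinc-finger repressor, described as frameshift mutations in lines of the same H1 cells, and they served only as context. The columns of the tables give a group but no replicate number. Values are therefore given for the first WT library and then the second, named after their tables, and a difference between the libraries cannot be told apart from one between the tables. Nothing in the labels says that samples of a group were separate cultures, so p-values measure only the spread between these samples.

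Mesoderm forms when cells of the epiblast enter the primitive streak, lose epithelial contacts and move inwards. Signals of the NODAL, BMP, WNT and FGF families pattern this step, and secreted inhibitors such as CER1 and the LEFTY proteins limit some of them. T-box, GATA and HAND transcription factors then set apart lateral plate and cardiac mesoderm, from which endothelium and blood later arise.

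Levels are FPKM, fragments scaled by transcript length and by all mapped fragments of the library, so genes of different length can be set side by side. A symbol was called expressed when its FPKM was at least 1 in both WT libraries, and 12930 of 37803 symbols (34.2%) were. Among protein-coding symbols it was 11474 of 18688 (61.4%), and among long noncoding ones 779 of 10406 (7.49%). The counts expressed in gene groups below stand beside the protein-coding share. A further 11307 symbols were listed at 0 in both. The median expressed symbol had a mean of 11.5 FPKM, 903 symbols reached 100 and 96 reached 1000. FPKM carry no read totals, so the depth is unknown and counting intervals cannot be given. In the bulk RNA of a culture, fewer cells of a type and less RNA per cell cannot be told apart.

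As context, WT was compared with both knockout groups over 13909 genes with limma, with the table as a block. The difference is given on the log2(FPKM + 1) scale as WT minus the mean of the knockout groups, so a positive value is a higher level in WT. Of the genes tested, 15.4% were called higher and 15.8% lower in WT at an adjusted p under 0.05, with a median difference of 0.05, and the counts called in gene groups below stand beside those shares. Genes were tested from a mean of 1 FPKM over the 6 libraries. One that passed only through WT, or only through the knockout libraries, had its direction fixed. SNAI1 mRNA itself was 37.1 and 36.4 FPKM in WT and between 47.8 and 68.6 in the 4 knockout libraries, which does not check the labels because a frameshift can leave the transcript in place.

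The 5 genes chosen as markers of the labelled mesoderm were all expressed in WT. CER1, a secreted inhibitor of NODAL and BMP ligands, stood at 3262 and 2550.05 FPKM, rank 16 of all symbols by mean WT level. APLNR, the receptor for apelin and ELABELA peptides, followed at 621 and 573 FPKM, rank 147. The T-box factor EOMES was at 194 and 204 FPKM (rank 403) and GATA4, a zinc-finger factor of the heart and gut, at 104 and 126 (rank 779). MESP1, a basic helix-loop-helix factor of early cardiac mesoderm, was at 54.7 and 52.3 (rank 1816). The WT libraries kept these genes in the same order, CER1, APLNR, EOMES, GATA4 and MESP1, and the libraries of neighbouring genes in that order did not overlap.

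All 5 markers were higher in WT than in every knockout library. They were chosen with earlier results of these data known, so their shared direction is no separate evidence. CER1 ranged from 977 to 1797 FPKM in the knockout libraries, with a difference of 1.0 ± 0.12 (SE) and an adjusted p of 0.00314 by limma. The difference of EOMES was 0.70 ± 0.088 (adjusted p = 0.0041, limma) and that of MESP1 0.43 ± 0.059 (adjusted p = 0.00569, limma). CER1 and MESP1 no longer passed without the block (adjusted p = 0.107 and 0.104 by limma) or without the second WT library (0.0505 and 0.0533), and MESP1 did not without the first (0.0612).

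The stretches before the starts of CER1, EOMES and HAND1, a helix-loop-helix factor of lateral mesoderm that is not among the 5 marker genes, are shown beside the share of genes expressed in WT by their count of the dinucleotide CG. Those of MESP1, APLNR and GATA4 are not shown here. The sequences are the 250 bases before the start of CER1 (chr9:14722734-14722983), EOMES (chr3:27722324-27722573) and HAND1 (chr5:154478228-154478477), from RefSeq on GRCh38.p14, each on the minus strand, 5′ to 3′. Capitals mark every CG.
CER1: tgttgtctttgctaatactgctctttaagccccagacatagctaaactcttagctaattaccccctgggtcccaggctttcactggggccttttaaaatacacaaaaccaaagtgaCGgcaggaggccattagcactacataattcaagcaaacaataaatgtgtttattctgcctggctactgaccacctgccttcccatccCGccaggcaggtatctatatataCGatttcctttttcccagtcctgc
EOMES: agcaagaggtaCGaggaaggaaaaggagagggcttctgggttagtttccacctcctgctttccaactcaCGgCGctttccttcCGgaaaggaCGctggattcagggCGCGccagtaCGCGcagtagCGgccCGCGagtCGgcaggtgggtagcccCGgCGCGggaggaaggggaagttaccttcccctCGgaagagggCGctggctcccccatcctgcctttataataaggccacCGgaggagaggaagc
HAND1: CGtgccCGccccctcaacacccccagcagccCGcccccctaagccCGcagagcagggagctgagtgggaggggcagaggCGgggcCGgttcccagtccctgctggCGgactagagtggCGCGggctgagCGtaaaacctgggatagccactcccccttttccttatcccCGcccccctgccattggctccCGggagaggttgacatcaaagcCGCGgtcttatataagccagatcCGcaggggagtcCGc

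The CER1 stretch held 3 CG, that of EOMES 19 and that of HAND1 16, where the median of 35116 RefSeq promoters was 11 and 29.3% had at most 3. The E-box CAGGTG, searched on both strands with its reverse complement CACCTG, is the motif that Snail factors are known to bind. It occurred in 17.5% of all these stretches, 1 time each in CER1 (first base at -64, counted back from -1 just before the start) and EOMES (-109), and not in the letters of HAND1. TATA-like letters (TATATA, or the box TATAAA read on either strand) were in 12.8% of all promoters, and in all 3 stretches, at -32 in CER1, -31 in EOMES and -30 in HAND1. Over 10357 protein-coding symbols with 1 promoter, 9.77% of those with 0 to 3 CG were expressed in WT (154 of 1577). The share was 31.2% with 4 to 9 CG (405 of 1300), 73.2% with 10 to 19 (1933 of 2640) and 82.3% with 20 to 58 (3982 of 4840). CER1 was thus among the few expressed genes of its class by CG count, while EOMES and HAND1 were in a class where most genes were expressed.

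**Figure D1:**
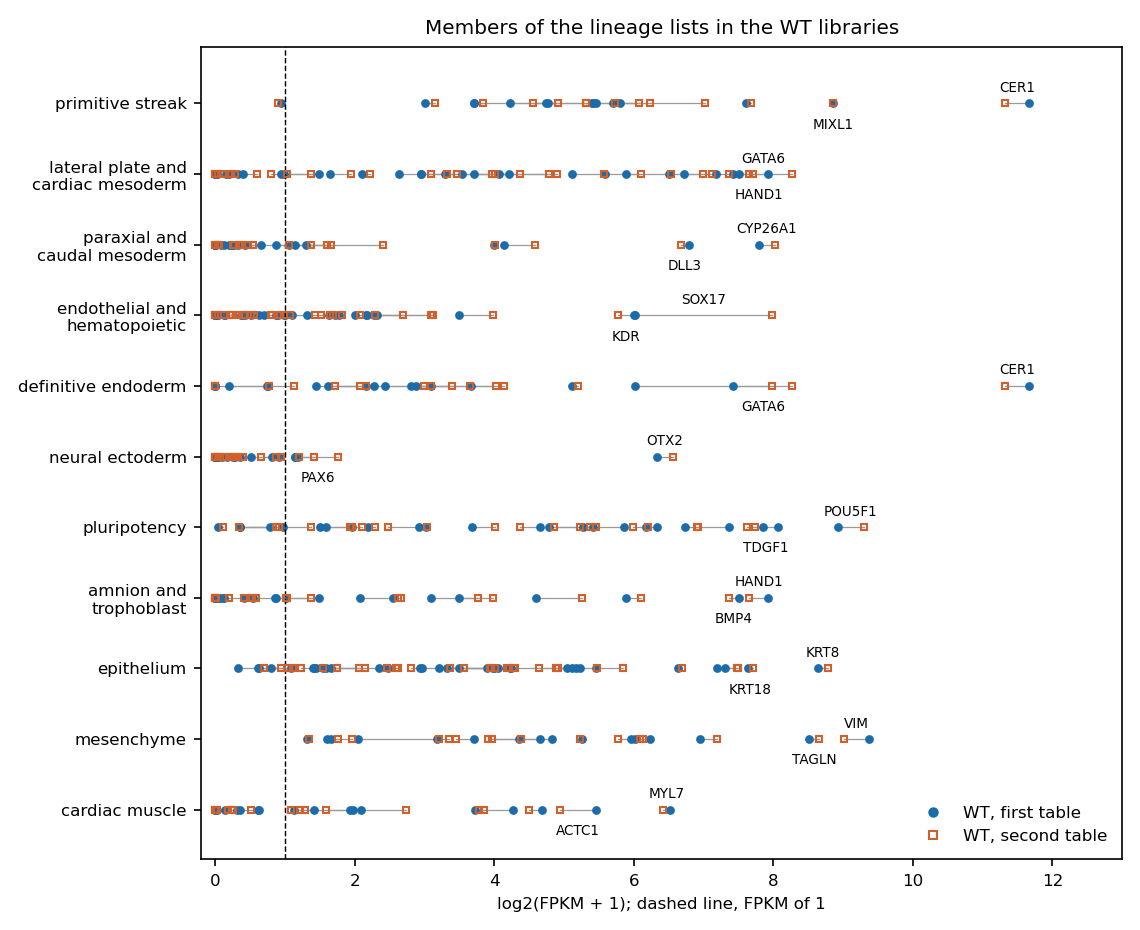
Levels of the members of 11 lineage lists in WT, as log2(FPKM + 1). Each filled circle is a gene in the first WT library and each open square the same gene in the second, joined by a line; the dashed line is an FPKM of 1, and the 2 members with the highest mean are named. Streak, lateral plate, endoderm, pluripotency, amnion, epithelium and mesenchyme members reach far to the right. So do CYP26A1 and DLL3 of the paraxial list and SOX17 of the hematopoietic list, while most paraxial, hematopoietic and neural members lie near 0.

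Primitive streak genes were nearly all expressed, 14 of 15, with a median member at 40.8 FPKM. After CER1 the highest were MIXL1, a homeobox factor of the streak, at 462 and 461 FPKM, and EOMES. GSC, the organizer homeobox factor, was at 51.1 and 74.0 FPKM, and LHX1, a LIM-homeobox factor of the anterior streak, at 41.1 and 66.7. T (brachyury), the classical streak factor, was far lower at 17.8 and 38.7 FPKM, and NODAL, the ligand that induces the streak, was at 12.1 and 13.3. FGF4 was the member below the limit, at 0.918 and 0.865 FPKM.

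The streak genes did not lie on one side of the knockout libraries. Of 15 tested, 6 were higher and 7 lower in WT. FGF4, among the 7, reached the mean of 1 FPKM needed for testing only through the knockout libraries. That filter fixed its direction. LHX1 was higher by 1.55 ± 0.11, with 15.50 to 19.98 FPKM in the knockout libraries (adjusted p = 0.000815, limma), and MESP2, a paralog of MESP1 that acts in segmentation, stood at 25.8 and 29.3 FPKM in WT and was higher by 1.52. T was 130 to 251 FPKM in the knockout libraries, and the difference was -2.72 ± 0.080 (adjusted p = 0.000142, limma). NODAL was 64.1 to 73.7 FPKM there, a difference of -2.34 ± 0.065. For T, NODAL, LHX1 and MESP2 the WT values lay outside the range of the knockout libraries.

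Lateral plate and cardiac mesoderm genes were expressed in 20 of 30 cases, near the share of 61.4% among all protein-coding symbols. The highest was GATA6, at 171 and 308 FPKM, then HAND1 at 242 and 201 and BMP2, a BMP ligand, at 143 and 208. BMP4, the ligand also added to the medium, was transcribed by WT cells at 181 and 165 FPKM. TBX3, a T-box factor, was at 58.3 and 67.7. Factors of later heart progenitors ranged from NKX2-5, a cardiac homeobox factor, at 10.6 and 28.9 FPKM down to 0. MYOCD had 8.81 and 9.02 FPKM, HAND2 6.75 and 10.1, TBX20 3.28 and 3.63, ISL1 1.82 and 1.04 and MEF2C 0.320 and 0.173, and TBX5 and NKX2-3 were listed at 0 in both libraries.

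Of 19 lateral plate and cardiac genes tested, 15 were higher and 2 lower in WT, with a median difference of 0.89 against 0.05 over all genes. BMP4 was 29.8 to 38.2 FPKM in the knockout libraries, and the difference was 2.25 ± 0.087 (adjusted p = 0.000194, limma). HAND1 was 47.2 to 66.4 there, a difference of 1.96 ± 0.059, and HAND2 was 0.432 to 0.655, a difference of 2.61 ± 0.15. HAND2, which counts among the 15, reached the mean of 1 FPKM needed for testing only through WT, so its direction was fixed by that filter. IRX3, an Iroquois homeobox factor, was 47.0 and 139 FPKM in WT and 4.79 to 14.4 in the knockout libraries, with a difference of 3.13 ± 0.076. In IRX3 the first table was the lower one in every group, and WT was the highest library within each table. The lower genes were MSX2, a homeobox target of BMP, at 33.6 and 46.5 FPKM in WT, and FOXC1, a forkhead factor of paraxial and vascular mesoderm, at 5.18 and 14.6. GATA6 was higher by 0.71 ± 0.071 and no longer passed without the block (adjusted p = 0.301, limma).

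Paraxial and caudal mesoderm genes were largely not expressed, with 7 of 22 expressed and a median of 0.316 FPKM. The highest were CYP26A1, which breaks down retinoic acid, at 221 and 259 FPKM, DLL3, a NOTCH ligand-like protein, at 110 and 101, and NKX1-2 at 16.6 and 23.0. TBX6, a T-box factor of presomitic mesoderm, was at 15.02 and 15.2. MSGN1, another presomitic factor, was listed at 0 and at 1.07 FPKM, MEOX1 at 0 and 0.042, and PAX1, MEOX2 and UNCX at 0 in both. Of 9 tested, 1 (DLL3) was higher and 5 lower in WT. MSGN1, among the 5, could be tested only through the knockout libraries, which fixed its direction.

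Of 33 endothelial and hematopoietic genes listed once, 13 were expressed, 3 of them at an FPKM of at least 5 in both WT libraries, and 4 were listed at 0 in both. The highest were SOX17, an SRY-box factor of endoderm and arterial endothelium, at 63.9 and 251 FPKM, KDR, the VEGF receptor carried by early mesoderm, at 62.9 and 53.8, and GATA2 at 10.3 and 14.7. ETV2, which starts the endothelial program, was at 1.5 and 2.23 FPKM, RUNX1 at 3.98 and 3.22 and CD34 at 1.15 and 1.11. TAL1, PECAM1 and CDH5, which define endothelial and blood cells, lay between 0.00963 and 0.186 FPKM, and PTPRC, the pan-leukocyte surface gene, was listed at 0. Of 14 tested, 3 were higher (KDR, LYL1 and KLF1) and 2 lower (SOX17 and NFE2). KDR was higher by 0.56 ± 0.082 (adjusted p = 0.00683, limma) and did not pass without the block (0.0651) or without the first WT library (0.0540).

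SOX17 differed most between the WT libraries among the members of these lineage lists. The values were 63.9 and 251 FPKM in WT, 133 and 338 in SNAI1_KO_1 and 120 and 280 in SNAI1_KO_2, so the second table was the higher one in every group. WT was below both knockout groups within each table, with a difference of -0.63 ± 0.15 (adjusted p = 0.0319, limma). That call was lost without the block (adjusted p = 0.728), without the first WT library (0.0704), without any 1 of 3 knockout libraries (0.0703 to 0.108) and against SNAI1_KO_2 alone (0.0855).

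Definitive endoderm genes were expressed in 13 of 19 cases, but the leading members, CER1, GATA6 and SOX17, are also in the lists above. CPE, a carboxypeptidase, had 33.7 and 35.7 FPKM, FOXA2, the pioneer factor of endoderm, 6.33 and 15.3, and HNF4A, a later factor, 0.666 and 0.705. ALB and TFF1, products of differentiated endoderm, were listed at 0. Of 14 tested, 5 were higher and 4 lower in WT. Neural ectoderm genes were expressed in 4 of 20 cases, with OTX2, which epiblast and anterior streak also use, at 79.6 and 93.2 FPKM, then PAX6 at 1.29 and 2.38 and SOX10 at 1.2 and 1.66. SOX1, the first pan-neural factor, was listed at 0, and 0 of 5 tested were higher and 2 lower in WT.

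Of 24 pluripotency genes, 19 were expressed at day 2. POU5F1, the core factor, was at 485 and 630 FPKM, TDGF1, the NODAL co-receptor, at 266 and 212, and LIN28A, an RNA-binding protein that blocks let-7 maturation, at 229.8 and 195. The other core factors were low, NANOG at 6.58 and 7.16 FPKM and SOX2 at 0.281 and 0.834. Of 21 tested, 3 were higher and 6 lower in WT. POU5F1 was 677 to 1014 FPKM in the knockout libraries, a difference of -0.57 ± 0.042, and did not pass without the block (adjusted p = 0.243, limma).

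Amnion and trophoblast genes were expressed in 10 of 22 cases, led by HAND1, BMP4 and TBX3, which mesoderm shares. GATA3 was at 23.1 and 37.3 FPKM and TFAP2A, an AP-2 factor of amnion and surface ectoderm, at 3.22 and 5.36, while CGA, ELF5 and TFAP2B were listed at 0. Of 11 tested, 4 were higher and 5 lower in WT. Cardiac muscle genes were expressed in 10 of 18 cases, and 5 had at least 5 FPKM in both WT libraries. MYL7, the atrial myosin light chain, was at 90.9 and 84.8 FPKM, ACTC1, cardiac actin, at 42.9 and 29.7, and MYL4 at 24.6 and 21.6, but the sarcomere genes MYH6, MYH7 and MYL2 were between 0 and 0.0221. Of 11 tested, 1 (MYL4) was higher and 7 lower in WT.

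Epithelial and mesenchymal genes were expressed side by side. Of 34 epithelial genes listed once, 30 were expressed, with a median of 12.1 FPKM, led by the keratins KRT8 (398 and 440 FPKM), KRT18 (198 and 208) and KRT19 (158 and 179). CLDN6, a tight junction claudin of stem cells, was at 145 and 178. The adhesion genes EPCAM (32.1 and 29.3 FPKM) and CDH1 (10.3 and 18.5) were lower. CDH3, another cadherin of this list, had 2 rows in each table and was left out of the counts and the test. Its WT values were 28.3 and 37.5 FPKM in one row, with 55.2 to 88.1 in the knockout libraries, and 0.269 and 0.937 in the other. CDH2, the mesenchymal cadherin, stood at 73.9 and 67.1, above CDH1 in both libraries.

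Among the 34 epithelial genes tested, 0 were higher and 32 lower in WT (limma, and 0 and 33 at an unadjusted p under 0.05), with a median difference of -1.38. Of the 34, 30 were expressed in both WT libraries. Any other member under 1 FPKM in both could be tested only through the knockout libraries, which fixed a lower level in WT. KRT8 was 1191 to 1355 FPKM in the knockout libraries, a difference of -1.58 ± 0.064, and CLDN6 was 390.5 to 446 there, a difference of -1.36 ± 0.049. The summed FPKM of the list was 1336 and 1492 in WT against 3801 to 4201 in the knockout libraries.

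All 16 mesenchymal genes were expressed in WT. VIM, the intermediate filament of mesenchymal cells, was at 661 and 517 FPKM, TAGLN, an actin-binding protein, at 363 and 402, and FN1, fibronectin, at 123 and 146. CDH11, a mesenchymal cadherin, was at 61.5 and 54.0, and SNAI2, the paralog of SNAI1, at 27.4 and 19.9. Of 16 tested, 8 were higher and 3 lower in WT, the lower ones being SNAI1 itself, S100A4 and TAGLN. The summed FPKM of this list was also lower in WT, 1483 and 1374 against 2023 to 2243 in the knockout libraries. TAGLN alone made up most of the sum in the knockout libraries, so the sum does not describe the list as a whole. VIM was 137 to 280 FPKM in the knockout libraries (difference 1.60 ± 0.13), CDH11 was 5.48 to 16.9 (2.26 ± 0.20) and TAGLN was 1494.6 to 1723 (-2.05 ± 0.053). TAGLN thus stood on the opposite side of the knockout libraries from VIM and CDH11, and VIM did not pass without the block (adjusted p = 0.0613, limma).

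**Figure D2:**
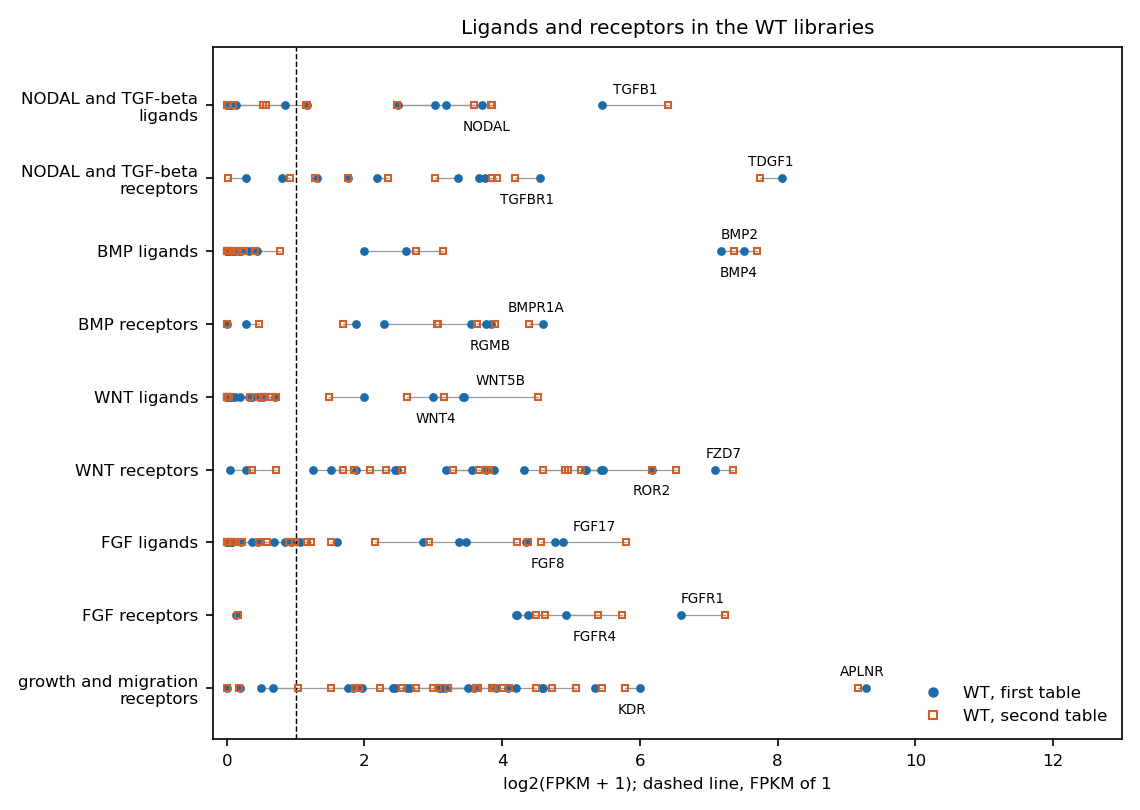
Levels of the ligand and receptor genes of 4 signal families and of growth and migration receptors in WT, as log2(FPKM + 1). Filled circles are the first WT library and open squares the second, the dashed line is an FPKM of 1, and the 2 highest members of each list are named. BMP2 and BMP4 stand above every BMP receptor, while in the WNT and FGF groups the highest receptors, FZD7 and FGFR1, stand above every ligand.

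In the NODAL and TGF-beta group, 6 of 12 ligand genes were expressed, led by TGFB1 (42.7 and 83.6 FPKM), NODAL and GDF11 (8.06 and 13.5). INHBA, which encodes the chains of activin A, was at 0.0436 and 0.492 FPKM. Of 10 receptor and co-receptor genes 8 were expressed, led by TDGF1, TGFBR1 (22.3 and 17.2) and the activin receptor ACVR1B (12.4 and 14.2). All 15 genes of a list of inhibitors, targets and transducers, which pass the signal on inside the cell, were expressed. CER1 was the highest, then BAMBI, a decoy receptor, at 156 and 167 FPKM. The NODAL antagonists LEFTY1 and LEFTY2 were at 69.6 and 84.9 and at 27.0 and 33.8 FPKM, and FST, which traps activin, at 70.9 and 66.1.

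The antagonists were on the other side of the knockout libraries from their ligand NODAL. LEFTY2 was 3.30 to 4.38 FPKM in the knockout libraries, with a difference of 2.69 ± 0.13 (adjusted p = 0.000304, limma), and LEFTY1 was 17.1 to 26.2, with a difference of 1.78 ± 0.13. These neighbouring paralogs are alike in sequence, so reads may have been divided between them. Of 15 inhibitors, targets and transducers tested, 8 were higher in WT, SMAD2 and SMAD4 among them, and 3 lower, FOXH1 among them. Of 8 receptors 4 were higher and 0 lower (6 and 0 at an unadjusted p under 0.05, limma), and of 5 ligands 2 were higher and 2 lower.

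BMP ligands were few but high, with 4 of 15 expressed. BMP2 and BMP4 were above 140 FPKM in both libraries, and BMP1, a matrix protease despite its name, followed at 5.09 and 5.72. BMP7 was at 2.99 and 7.79, and BMP3 and BMP15 were listed at 0. Of 8 receptor genes 6 were expressed, led by BMPR1A (23.1 and 19.9 FPKM), the co-receptor RGMB (12.6 and 13.9) and BMPR2 (13.3 and 11.4). Of 18 inhibitors, targets and transducers 16 were expressed, led by ID1, a helix-loop-helix inhibitor induced by BMP, at 239 and 239 FPKM. Next were SMAD6, the inhibitory SMAD, at 98.3 and 144, and BMPER at 78.6 and 98.1. NOG, an extracellular BMP trap, was at 18.5 and 27.3. In WT, 2 of 4 ligands tested were higher and 1 lower, and 3 of 6 receptors higher and 2 lower. Of 17 inhibitors, targets and transducers 5 were higher (NOG, BMPER, SMAD6, SMAD5 and SMAD9) and 6 lower. All 4 ID genes were among the lower ones, and BMP2 and BMP4 were the higher ligands.

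Of 18 WNT ligand genes listed once, 4 were expressed, WNT5B (9.78 and 21.9 FPKM), WNT4 (9.91 and 5.17), WNT3 (7.01 and 7.88) and WNT8A (2.99 and 1.81). WNT5A had 2 rows in each table and was left out of the counts and the test, with 74.6 and 79.6 FPKM in one row and 0.916 and 0.632 in the other. Receptors were broadly present, 16 of 18. FZD7 led at 135 and 162 FPKM, followed by ROR2, a co-receptor for WNT5A, at 71.5 and 71.1 and FZD8 at 36.2 and 91.1. LGR5 and LGR4, receptors for R-spondins, were at 43.3 and 34.4 and at 42.0 and 30.0. Of 27 inhibitors, targets and transducers 19 were expressed, led by the transducer CTNNB1, beta-catenin, at 135 and 107 FPKM. Next were SP5, a WNT-induced zinc-finger factor, at 41.8 and 129, and NKD1, a feedback inhibitor, at 43.9 and 62.3. DKK1, a secreted WNT inhibitor, was at 44.4 and 60.1.

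Several WNT receptors were higher in WT. FZD7 was 54.1 to 69.0 FPKM in the knockout libraries, with a difference of 1.33 ± 0.078 (adjusted p = 0.000444, limma), LGR5 was 10.5 to 20.3 (1.32 ± 0.11) and ROR2 was 32.5 to 41.7 (0.89 ± 0.11). Of 16 receptors tested 7 were higher and 4 lower, and of 6 ligands 1 was higher and 4 lower. Of 21 inhibitors, targets and transducers 3 were higher, TCF7L1 among them, and 7 lower, TCF7 among them. WNT5B was 37.7 to 70.4 FPKM in the knockout libraries, a difference of -1.58 ± 0.21. LGR5 and WNT5B no longer passed without the block (adjusted p = 0.0692 and 0.0540, limma), and ROR2 did not without the second WT library (0.0560).

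Of 22 FGF ligand genes 8 were expressed, led by FGF17 (28.4 and 54.4 FPKM), FGF8 (26.3 and 22.6) and FGF13 (19.3 and 19.7), which encodes an intracellular protein. FGF17 and FGF8 belong to the same subfamily and lay on opposite sides of the knockout libraries. FGF17 was 159 to 225 FPKM there, with a difference of -2.13 ± 0.18 (adjusted p = 0.00132, limma), and FGF8 was 12.2 to 17.9, with a difference of 0.69 ± 0.066 that did not pass without the block (adjusted p = 0.0662). Of 9 ligands tested, 1 was higher and 4 lower. FGF4 was among the 4, with its direction fixed by the filter. Of 6 receptor genes 5 were expressed, FGFR1 at 95.3 and 149 FPKM, FGFR4 at 29.5 and 52.6, FGFR3 at 19.8 and 41.2 and the others lower, with 3 of 5 higher and 0 lower (limma, also 3 and 0 at an unadjusted p under 0.05). All 11 feedback genes and targets were expressed, led by ETV4 (41.6 and 74.7), SPRY4 (43.3 and 57.6) and IL17RD (22.2 and 26.6), and 1 of 11 was higher and 4 lower.

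In the NOTCH pathway 12 of 17 genes were expressed, led by DLL3, HES6 (24.4 and 66.4 FPKM) and the receptor NOTCH3 (22.5 and 40.7). Among the ligands that activate NOTCH, JAG1 was at 2.77 and 4.41, DLL1 at 0.0869 and 0.300 and DLL4 at 0.0136 and 0.0809. Of 11 genes of the pathway tested, 2 were higher and 7 lower in WT. Among ligands of growth and migration 12 of 22 were expressed, VEGFB at 23.9 and 24.3, VEGFA at 10.9 and 17.5, the chemokine CXCL12 at 14.9 and 10.1 and the rest lower, and 4 of 16 tested were higher and 9 lower. Receptors of that kind were expressed in 20 of 24 cases, with APLNR far ahead of KDR and of ACKR3, a scavenger of CXCL12, at 39.8 and 42.7. The ligands of APLNR were low, APLN at 0 and 0.0255 FPKM and APELA, which encodes ELABELA, at 1.53 and 1.24. Of 22 receptors tested 10 were higher and 1, KIT, lower. ACKR3 was 8.34 to 19.1 FPKM in the knockout libraries, a difference of 1.55 ± 0.21 (adjusted p = 0.00563, limma).

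Matrix genes made up some of the highest levels. SPARC, a collagen-binding glycoprotein, was at 990.3 and 1303 FPKM, rank 79 of all symbols. Of 19 basement membrane genes 17 were expressed, with LAMA5 (33.7 and 83.4) and LAMB2 (47.5 and 67.6) next after SPARC, while LAMA3 and LAMB3 stayed between 0.0238 and 0.113. Of 32 interstitial matrix genes 23 were expressed and 8 had a mean of at least 100 FPKM. COL6A1 was at 205 and 411, FBLN1 at 230.4 and 239, COL5A1 at 182 and 219 and COL5A2 at 209 and 153. FBN2, the embryonic fibrillin, was at 165 and 137, and HAS2, which makes hyaluronan, at 157 and 113. COL3A1 and DCN, typical of mature fibroblasts, lay between 0 and 0.292 FPKM.

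Interstitial matrix genes tended to be higher in WT, 14 of 26 tested against 6 lower, with a median difference of 0.39, while basement membrane genes were higher in 3 and lower in 8 of 16. COL5A2 was 63.1 to 85.3 FPKM in the knockout libraries (difference 1.28 ± 0.048), HAPLN1, which links hyaluronan to proteoglycans, was 86.6 and 56.5 in WT and 16.3 to 32.3 in the knockout libraries (1.57 ± 0.085), and SPARC was 642 to 826 there (0.64 ± 0.034). COL5A1 and FBN2 were higher by 0.95 and 0.80 and HAS2 by 0.50. HAS2 lost its call without the block (adjusted p = 0.337, limma) and without either WT library (0.0597 and 0.0622), and SPARC, FBN2 and HAPLN1 did without the block (0.123, 0.0836 and 0.0717).

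Of 25 matrix remodelling genes 21 were expressed, led by the protease inhibitor SERPINE2 (692 and 519.6 FPKM), SERPINH1, the collagen chaperone, at 373 and 344, and MMP14, a membrane-bound metalloproteinase, at 146 and 186. MMP1 and MMP3 were listed at 0, and of 22 tested 7 were higher and 7 lower. Of 19 integrins 10 were expressed, ITGB5 at 229.9 and 364, ITGB1 at 109 and 104 and ITGA5, the fibronectin receptor chain, at 93.7 and 94.9. Of 13 tested 3 were higher, ITGA5 among them, and 7 lower.

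Of the 39 HOX genes, 7 were expressed in WT, 3 of them at an FPKM of at least 5, and all 7 lie in the HOXB cluster. They were HOXB6 (25.2 and 32.0 FPKM), HOXB2 (15.2 and 16.1), HOXB3 (6.90 and 22.2), HOXB9 (3.29 and 1.93), HOXB8 (2.14 and 1.77), HOXB7 (1.83 and 1.52) and HOXB5 (1.38 and 1.92). HOXB4, which lies among them, was at 0.386 and 0.269, and HOXB1 at 0.144 and 0.116. In all, 13 HOX genes were listed at 0 in both WT libraries. HOXB6 was 1.74 to 3.41 FPKM in the knockout libraries, with a difference of 3.04 ± 0.21 (adjusted p = 0.00073, limma), and HOXB2, HOXB3 and HOXB9 were also higher in WT. HOXB2 and HOXB3 were high enough to be tested only through WT, which fixed their direction. Genes of this cluster overlap antisense transcripts, and whether strand was used in the counting is not stated, so these levels are uncertain.

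The leading transcription factor of each family was found by symbol. GATA6, EOMES and SOX17 led the GATA, T-box and SOX families, in which 4 of 6, 6 of 16 and 8 of 19 members were expressed. FOXM1, a cell cycle factor, led the 44 FOX genes at 50.9 and 44.9 FPKM, with 19 expressed. HAND1, MSX2 and ID1 led the HAND, MSX and ID families. ZIC2 was at 61.6 and 102, KLF16 at 29.8 and 38.0 and MEIS3 at 25.7 and 36.6. LHX1 was the only one of 8 LHX genes expressed, and CDX1 the only one of 3 CDX genes, at 1.07 and 2.15.

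Outside mitochondrial and ribosomal protein symbols, the 20 highest in WT were mostly genes that every cell uses. RN7SL2 and RN7SL1, RNAs of the signal recognition particle that are nearly identical and can share reads, had 10173 and 12741 and 6303 and 5998.5 FPKM. The translation factor EEF1A1 had 3589 and 3027, the actins ACTG1 and ACTB 2850 and 3368 and 2331 and 2422, and GAPDH 2512 and 2895. TMSB10, PPIA, PTMA, HNRNPA1, TMSB4X, ENO1, RACK1, PKM, PFN1 and HMGA1 ranked between 22 and 72. AL162151.2 is a processed pseudogene and AC106864.1 an antisense transcript, and both are uncertain for that reason. CER1 and SPARC were the secreted developmental proteins among the 20. PKM, pyruvate kinase, had 1411 and 1504 FPKM in WT and 822 to 864 in the knockout libraries, a difference of 0.78 ± 0.045 (adjusted p = 0.000411, limma). All 8 reference genes were expressed, led by EEF1A1, GAPDH and ACTB, with 1 higher, TUBA1B, and 2 lower, ACTB and EEF1A1, in WT.

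**Figure D3:**
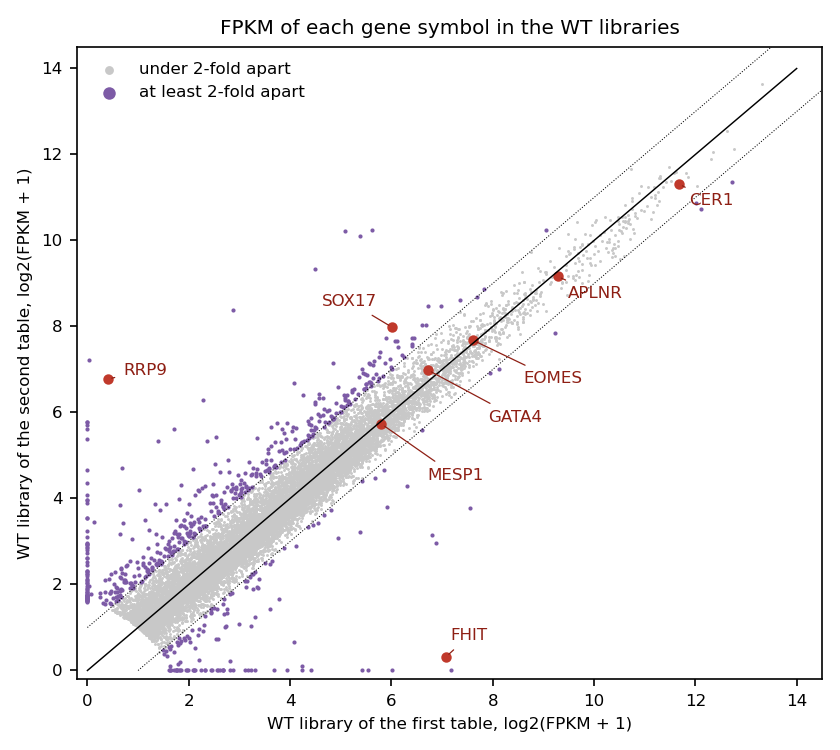
Each point is 1 of 13686 symbols with a mean WT FPKM of at least 1, by its log2(FPKM + 1) in the first WT library (horizontal) and in the second (vertical). The solid line marks equal values and the dotted lines a 2-fold difference; the 604 purple points lie outside them, and the 5 markers lie inside, while SOX17, RRP9 and FHIT lie outside.

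The WT libraries agreed on the order of genes. Over the 13686 symbols with a mean WT FPKM of at least 1, Pearson's r of log2(FPKM + 1) was 0.958 and Spearman's rho 0.956, as a description across genes, which are not independent. Of these symbols 84.2% were within 1.5-fold of each other, and 4.41% (604) were at least 2-fold apart on that scale, 467 higher in the second table and 137 in the first. Between the tables, r was 0.964 in SNAI1_KO_1 and 0.960 in SNAI1_KO_2, with 578 and 655 symbols 2-fold apart, so the WT libraries differed about as much as the knockout libraries did. Of the 604 symbols, 463 (76.7%) differed in the same direction in both knockout groups, and 238 by at least 2-fold in both. Mitochondrial symbols took 8.91% of the WT FPKM in the first table and 5.2% in the second, ribosomal protein symbols 20.9% and 18.3%, and the 100 highest symbols 37.4% and 32.0%.

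The genes of the lists showed the same leaning. Of 384 list members with a mean of at least 1 FPKM in WT, 32 (8.33%) were at least 2-fold apart, all 32 higher in the second table, and 29 of them leaned the same way in both knockout groups. NKX2-5 and EVX1, a streak homeobox factor at 12.1 and 38.9, were among them, as were T, SP5, IRX3, HOXB3 and COL6A1.

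The difference between the tables moved with GC content. Symbols were split by GC content into 5 equal classes. In the class with the lowest GC content (26.5% to 41.1%), the median difference of the WT libraries, second minus first, was -0.25 on the log2 scale, and in the class with the highest (58.5% to 83.9%) it was 0.37. In that highest class 9.02% of symbols were at least 2-fold higher in the second table, against 0.705% in the lowest. The knockout groups gave -0.24 and -0.30 in the lowest class and 0.39 and 0.41 in the highest.

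**Figure D4:**
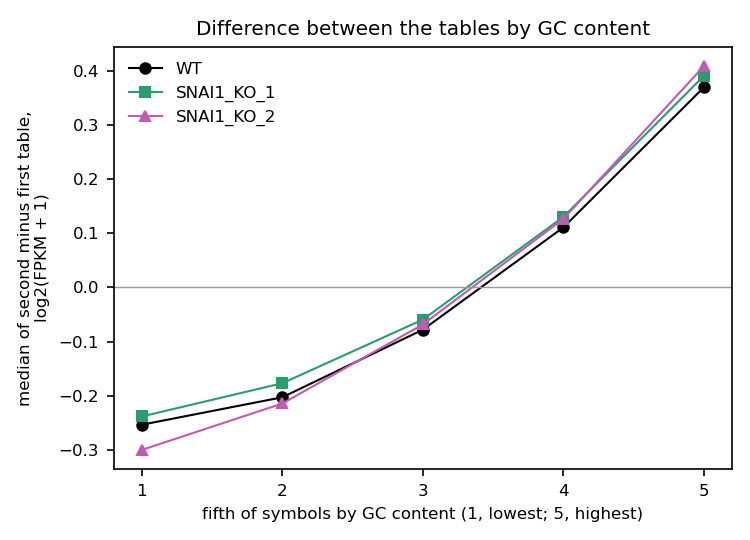
Median difference between the tables, second minus first, in log2(FPKM + 1), for 5 equal parts of the symbols by GC content. Lines join the values of WT, SNAI1_KO_1 and SNAI1_KO_2, which rise together from -0.25, -0.24 and -0.30 to 0.37, 0.39 and 0.41.

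The 10 largest differences between the WT libraries, among symbols with a mean of at least 5 FPKM, were of another kind, with 1 library near 0. RRP9, a small nucleolar RNA-binding protein, had 0.321 and 109 FPKM in WT, 0.133 and 56.2 in SNAI1_KO_1 and 0.220 and 53.7 in SNAI1_KO_2, so it was low in the first table in every group. FHIT, a hydrolase gene, had 134 and 0.241 FPKM in WT, 0.326 and 0.407 in SNAI1_KO_1 and 101 and 0.467 in SNAI1_KO_2, so it was high in WT and SNAI1_KO_2 of the first table and in no other library. AC007422.2 and AL355512.1 were at 143 and 45.8 FPKM in the first WT library and listed at 0 in the 5 others. AL139099.5 was at 0.0212 and 148, and MIR3648-1 and MIR3648-2, identical copies with identical values, were at 0 and 54.2. USMG5P1, AC004890.1 and RPS29P5 were listed at 0 in 1 WT library and at 63.2, 51.3 and 48.1 in the other. Names of this kind include pseudogenes and clone-named transcripts, whose reads can be split with copies elsewhere.

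**Figure D5:**
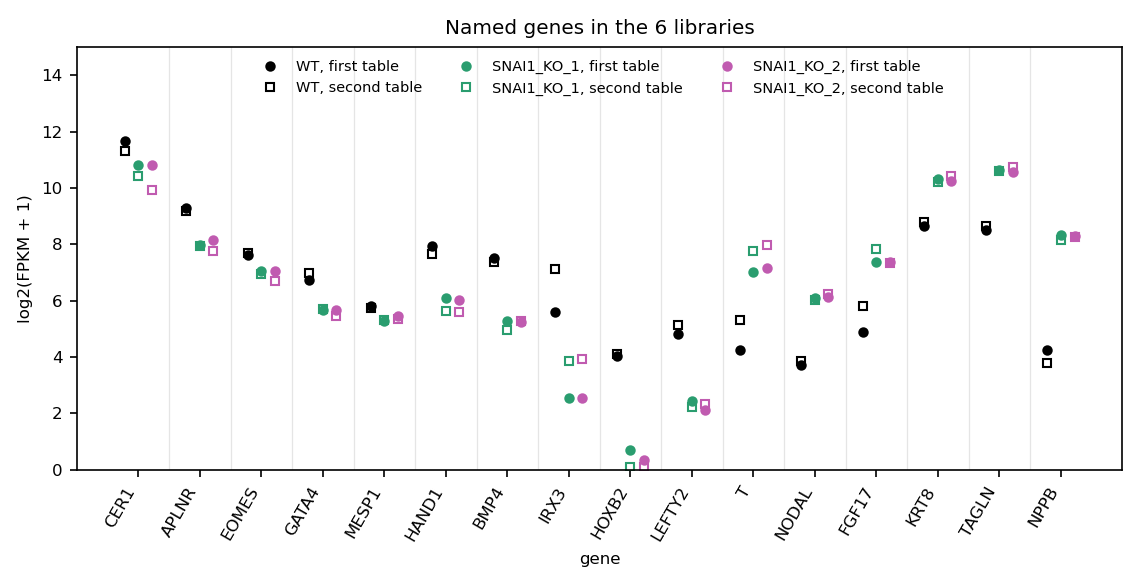
FPKM of 16 named genes in all 6 libraries, as log2(FPKM + 1), with filled circles for the first table and open squares for the second and 1 colour for each group. WT lies above both knockout groups from CER1 to LEFTY2 and below them from T to NPPB.

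The largest differences between WT and the knockout libraries, by size among called genes with the same direction in all 4 within-table differences, were partly genes of known function. HOXB2 was 0.0780 to 0.606 FPKM in the knockout libraries (difference 3.75 ± 0.17) and HOXB3 was 0.0608 to 0.599 (3.33 ± 0.33). Like SNRPCP14 and SNRPCP6 below, which were at 0 in the knockout libraries, they reached the mean of 1 FPKM needed for testing only through WT. A higher level in WT was thus fixed for these genes by the filter. On the lower side, NPPB, a natriuretic peptide of the heart, was 18.2 and 12.7 FPKM in WT and 281 to 317 in the knockout libraries (-4.23 ± 0.095). ACTA1, skeletal actin, was 2.81 and 5.67 in WT and 68.9 to 135 there (-4.20 ± 0.14), and ANKRD1, a muscle stress protein, was 7.81 and 6.53 in WT and 107 to 165 there (-4.09 ± 0.088). Each of these 5 had an adjusted p of at most 0.00192 by limma. The other named ones, AC015911.1, SNRPCP14 and SNRPCP6 on the higher side and RPS29P5 on the lower, are processed pseudogenes and uncertain. In WT they were at 602 and 231, at 40.9 and 8.35, at 10.97 and 13.8 and at 0 and 48.1 FPKM. AC015911.1 and RPS29P5 lost their calls without the block (adjusted p = 0.120 and 0.158, limma). AC015911.1 also lost it without each WT library (0.298 without that of the first table and 0.0839 without that of the second) and without each SNAI1_KO_2 library (0.0848 and 0.132), and RPS29P5 without each SNAI1_KO_1 library and the SNAI1_KO_2 library of the first table (0.0662 to 0.0927).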

How the data were processed

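RNA-seq values of 6 samples were used. The authors deposited FPKM by gene symbol in 2 tables that hold a library of each group. A heading line inside the second table names this unit, and values of the first look alike. The submitters' processing notes name BWA, Bowtie, RSEM and the build hg19 without roles or versions. The tables hold 38100 and 58324 gene rows and 0 further per-sample columns. Repeated symbols (94 and 340) were left out, as were the 18437 listed in the second table alone.

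For WT against knockout, 13909 symbols whose mean over the 6 libraries reached an FPKM of 1 were fitted on log2(FPKM + 1), which understates the change of low genes, with limma 3.58.1 (R 4.3.3). A symbol under 1 FPKM in every knockout library could pass this filter only through WT, which fixed its direction. Likewise, one under 1 FPKM in both WT libraries could pass only through the knockout libraries, which fixed a lower level in WT. The model had a mean for each group, the table as a block and a mean-variance trend, with 2 residual and 3.34 prior degrees of freedom. Tests were two-sided, with Benjamini-Hochberg adjustment across the 13909 genes and a threshold of 0.05. The pairing comes from shared tables. Over genes, the between-table differences of the groups correlated in pairs at r = 0.616, 0.666 and 0.676, a description only.

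GC content and gene types came from GENCODE release 29 by symbol (98.6% of expressed symbols had a GC value). The 5 markers came first, then 32 hand-written lists, always with the 3 highest members in WT, the 20 highest symbols, the leading members of transcription factor families and the largest differences. Other members were named for their role, and those named for a difference from the knockout libraries were chosen after values were seen. Markers and lists were chosen with earlier results of these data known. The alternatives were no block, other pseudocounts, filters and scalings, each knockout group alone and leaving out each library. Some genes under the naming rule are not reported here.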

Additional observations from a re-analysis of the deposited data

How the results depend on the processing

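The number of genes called between WT and knockout was 4348, of which 49.4% were higher in WT. Without the replicate block for the paired tables it was 1065, with 28.1% higher in WT, and without the filter on low values 2139. Leaving out 1 library at a time gave 1728 to 2840, with 1828 when the first table lost its WT library and 1728 when the second did. The pseudocounts of 0.1 and 10, a filter at 5 FPKM, quantile normalization, equal sums and each knockout group alone gave 3327 to 4341. Leaving out a library leaves fewer samples, and the cause of the other changes was not tested.

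The number of expressed symbols (12930) was 14569 at an FPKM of at least 0.5, 8769 at 5, 14343 in either WT library, 14084 with equal sums and 13553 or 13720 in the first or second WT library alone. At an FPKM of at least 5, 14 of 32 list counts moved by over 1.5 times, among them endothelial and hematopoietic genes (13 to 3), HOX genes (7 to 3), cardiac muscle (10 to 5), neural ectoderm (4 to 1) and growth and migration ligands (12 to 4). The 604 symbols 2-fold apart between the WT libraries became 996 with a pseudocount of 0.1, 350 with a filter at 5 FPKM and 962 with equal sums.

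Over 733 alternatives of 49 named genes, 686 left the call as it was and 47 lost it with the direction kept, 16 of them without the block and 10 without the filter. Those 10 were EOMES, CER1, SOX17, WNT5B, HAS2, KDR, ACKR3, SNRPCP14, AC015911.1 and RPS29P5, with adjusted p from 0.0502 to 0.198 by limma. Depth limits low levels by an amount that FPKM do not give.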
